A study of Mus musculus with 8 samples.

Results

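The genes described here are 10 genes of the cytotoxic programme and of natural killer (NK) cell receptors, taken by symbol from the 20888 genes of the deposited expression table. All 10 are in the table. They are the granzyme genes Gzma, Gzmb and Gzmk, the perforin gene Prf1, the granule membrane gene Nkg7, the receptor genes Klrd1, Klrk1 and Ncr1, and the T-box transcription factor genes Eomes and Tbx21. RNA-seq libraries were made from mouse blasts of T-ALL, an acute leukaemia of immature T cells, that had been sorted out of peripheral blood. A group of 4 libraries is labelled Kdm6b-KO (Vav-CRE:Kdm6b-KO, Kdm6b homozygous mutant) and the other group of 4 is labelled control (Vav-CRE:Control, Kdm6b wild type), so both groups carry Vav-CRE, a recombinase driven in blood-forming cells. KDM6B removes methyl groups from a lysine of histone H3, and the title of the study sets it beside oncogenic stress induced by NOTCH1. Neither the age of the mice, nor how the leukaemia was started, nor which exons were deleted is in the labels. They also leave unsaid whether each library is its own mouse, so the p-values cover library-to-library spread, some of which may be technical.

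Cytotoxic T cells and NK cells kill target cells by releasing granules. Perforin opens the target membrane and granzymes, a family of serine proteases, enter and cleave proteins inside. Lectin-like receptors such as the products of Klrd1 and Klrk1 and the immunoglobulin-like receptor encoded by Ncr1 decide when an NK cell releases its granules, and the related T-box factors T-bet (from Tbx21) and eomesodermin (from Eomes) turn on the programme in maturing NK cells and effector CD8 T cells. Immature T cells, which T-ALL blasts resemble, do not normally run this programme.

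Levels are in CPM, the counts of a gene scaled to a common library total. Estimated depths ran from 14017970 to 18244210 reads in the Kdm6b-KO libraries and from 18263010 to 22070870 reads in the controls, so that 3 reads, the floor used for detection, were worth 0.136 to 0.214 CPM (counting error only). Kdm6b itself was at 622, 656, 618 and 451 CPM in Kdm6b-KO replicates 1 to 4, against 583, 629, 521 and 323 CPM in control replicates 1 to 4, with a log2 change of 0.22 ± 0.21 (SE; limma adjusted p = 0.599). This level sums exons inside and outside any deleted part, and the antisense gene Kdm6bos overlaps Kdm6b, so nothing about the labels or the deletion is checked by it. The groups are therefore called by their labels throughout. Xist, expressed in female cells, was at 264 to 455 CPM in the Kdm6b-KO libraries and at 0 to 0.831 CPM in the controls, and sex and label cannot be told apart. The 11 T cell markers summed to 19003 to 23659 CPM in the Kdm6b-KO libraries and to 16129 to 19186 CPM in the controls, with all 11 above the floor in all 8 libraries.

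The promoters of the members are shown because they can be searched for the recognition cores of factors of the programme. Whether a core bears on the level of a gene in any library was not tested. RefSeq windows of 300 bases (250 before to 50 after the start, build GRCm38.p6) were found for 9 of the 10 genes, not for Klrd1. A T-box core (TCACAC) and a RUNX core (TGTGGT) were searched on both strands, and no match overlapped another. The T-box core was found for 4 of the 9 genes (Gzmb, Gzmk, Nkg7 and Ncr1), and in 14.5% of all 32851 promoter windows of the table. These shares count windows, not genes, and the windows belong to 27025 genes. The RUNX core was found for 6 of the 9 genes (Gzma, Gzmb, Prf1, Nkg7, Klrk1 and Ncr1), and in 16.8% of all windows. Gzmb, Nkg7 and Ncr1 held both, while Eomes and Tbx21 held neither. The 6 windows below are those of the granule genes and of Ncr1, read 5′ to 3′ on the strand of the gene, with the matches in capitals (TCACAC or its reverse GTGTGA, and TGTGGT or its reverse ACCACA).
Gzma, chr13:113100932-113101231, minus strand: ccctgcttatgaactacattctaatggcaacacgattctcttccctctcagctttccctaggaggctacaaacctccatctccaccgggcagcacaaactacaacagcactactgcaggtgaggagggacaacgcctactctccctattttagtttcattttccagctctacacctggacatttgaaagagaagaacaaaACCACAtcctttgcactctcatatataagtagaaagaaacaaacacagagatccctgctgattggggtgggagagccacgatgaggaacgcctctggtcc
Gzmb, chr14:56262285-56262584, minus strand: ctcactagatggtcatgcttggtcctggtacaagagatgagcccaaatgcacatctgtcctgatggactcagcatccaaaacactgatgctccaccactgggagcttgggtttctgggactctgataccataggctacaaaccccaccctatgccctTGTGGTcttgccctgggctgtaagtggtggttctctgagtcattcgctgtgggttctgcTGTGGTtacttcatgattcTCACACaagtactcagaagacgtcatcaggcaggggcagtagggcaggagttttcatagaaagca
Gzmk, chr13:113180916-113181215, minus strand: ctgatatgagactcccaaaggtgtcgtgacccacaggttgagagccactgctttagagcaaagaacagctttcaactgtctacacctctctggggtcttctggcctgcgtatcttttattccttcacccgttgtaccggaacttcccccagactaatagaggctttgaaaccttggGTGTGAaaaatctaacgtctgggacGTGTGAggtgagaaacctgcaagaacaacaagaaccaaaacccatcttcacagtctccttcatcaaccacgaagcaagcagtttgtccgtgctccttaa
Prf1, chr10:61297586-61297885, plus strand: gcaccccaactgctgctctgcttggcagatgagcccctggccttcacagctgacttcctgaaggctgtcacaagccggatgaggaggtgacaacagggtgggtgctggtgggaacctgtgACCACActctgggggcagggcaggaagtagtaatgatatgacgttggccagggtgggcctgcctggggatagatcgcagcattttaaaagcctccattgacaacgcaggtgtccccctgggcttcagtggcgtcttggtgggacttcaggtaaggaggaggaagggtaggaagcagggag
Nkg7, chr7:43436888-43437187, plus strand: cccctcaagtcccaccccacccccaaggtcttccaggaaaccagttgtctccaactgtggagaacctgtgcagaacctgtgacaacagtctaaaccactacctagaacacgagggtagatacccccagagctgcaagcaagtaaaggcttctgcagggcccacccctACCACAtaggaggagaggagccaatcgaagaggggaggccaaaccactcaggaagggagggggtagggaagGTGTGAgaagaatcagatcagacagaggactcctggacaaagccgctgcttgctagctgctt
Ncr1, chr7:4337465-4337764, plus strand: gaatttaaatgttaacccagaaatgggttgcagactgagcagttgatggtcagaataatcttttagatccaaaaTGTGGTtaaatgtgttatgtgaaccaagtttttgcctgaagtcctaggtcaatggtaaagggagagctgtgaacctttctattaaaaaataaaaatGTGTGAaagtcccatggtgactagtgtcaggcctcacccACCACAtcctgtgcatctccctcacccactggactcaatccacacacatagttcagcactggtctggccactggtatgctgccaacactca

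In these windows the T-box match of Gzmb begins 15 bases before the RefSeq start and that of Nkg7 12 bases before it. Gzmk has a pair of T-box matches, 74 and 49 bases before its start. The single RUNX match lies 50 bases before the start in Gzma and 130 bases before it in Prf1. Ncr1 has a second RefSeq start that shifts its window by a few bases and leaves the same matches in place. A match says only that the letters are there.

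**Figure D1:**
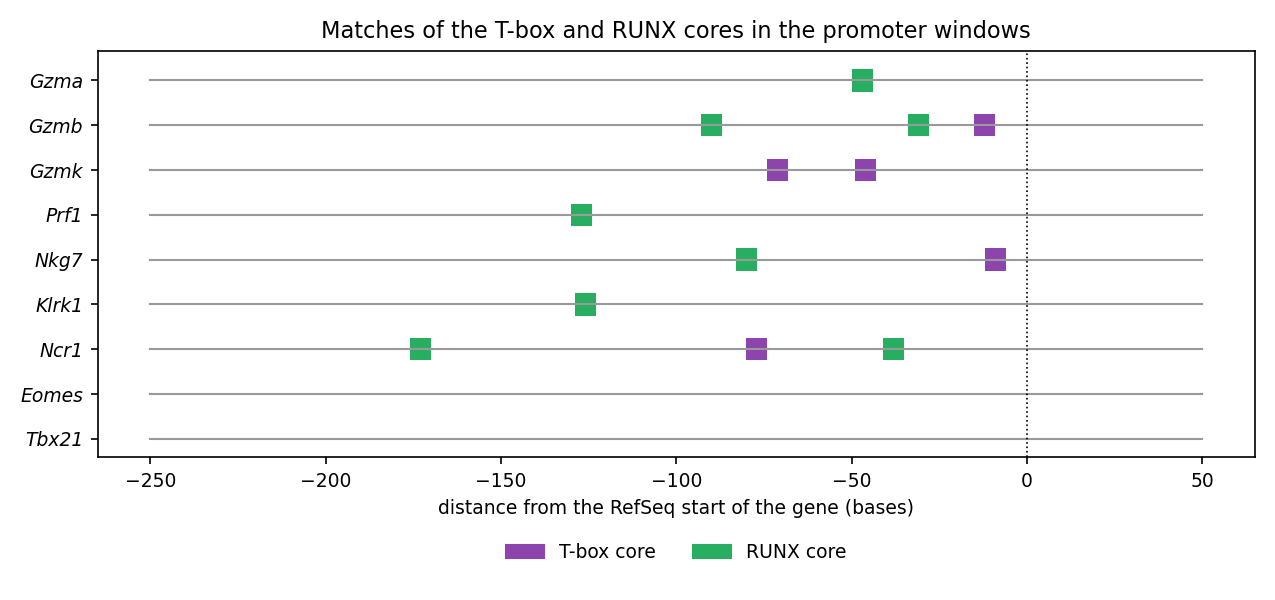
Matches of the T-box core (purple) and RUNX core (green) in the promoter windows of the 9 genes with a RefSeq entry, by distance in bases from the RefSeq start (dotted line, x axis); the grey line is the 300-base window. Eomes and Tbx21 hold no match, and the T-box matches of Gzmb and Nkg7 lie 15 and 12 bases before the start.

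No tested member passed the threshold for a difference between the groups, and most members were highest in a single library. Of the 10 members, 6 had at least 1 CPM in at least 4 libraries and were tested. Limma called 0 of the 6 at an adjusted p below 0.05 (Benjamini-Hochberg over all 13840 genes tested), against 3.53% of all genes, and 2 of the 6 (Prf1 and Nkg7, both higher in Kdm6b-KO) had an unadjusted p below 0.05, against 19.3% of all genes. The log2 estimates of these 6 were positive for 4 and negative for 2, with a median of 0.16, or -0.33 without Kdm6b-KO replicate 3, against -0.03 over all genes, or -0.05 without that library. The values of the groups overlapped in all 10 members, while they did not overlap for 13.2% of the genes tested. Kdm6b-KO replicate 3 had the highest value of the 8 libraries for 8 of the 10 members, and for 5 of the 6 tested. Among all 13838 tested genes with a unique symbol, the same library was the highest for 7.97%.

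The granzyme genes differed among themselves. Gzma encodes granzyme A, a protease that cuts after basic residues. It was at 41.5, 42.4, 99.2 and 57.8 CPM in Kdm6b-KO replicates 1 to 4, against 83.2, 77.6, 54.3 and 268 CPM in control replicates 1 to 4. Control replicate 4 stood far above the other 7 libraries, and among those the groups overlapped. The mean was 60.2 ± 27.01 CPM in Kdm6b-KO libraries and 121 ± 98.8 CPM in controls (SD, n = 4 each), or 71.7 ± 15.3 CPM in controls without control replicate 4. The log2 change on the log2(CPM + 1) scale was -0.79 ± 0.43 (SE; limma adjusted p = 0.335). Without control replicate 4 it was -0.32 (limma adjusted p = 0.513), and without Kdm6b-KO replicate 3 it was -1.06 ± 0.43 (SE; limma adjusted p = 0.227).

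Gzmb encodes granzyme B, which cuts after aspartate and activates caspases. Its level was 1.85, 4.28, 22.9 and 0.353 CPM in Kdm6b-KO replicates 1 to 4, against 4.33, 13.003, 4.29 and 4.17 CPM in control replicates 1 to 4. Kdm6b-KO replicates 3 and 4 held the highest and the lowest value of all 8 libraries, with 418 and 5 reads, and the controls lay between them. The mean was 7.35 ± 10.5 CPM in Kdm6b-KO libraries and 6.45 ± 4.37 CPM in controls (SD, n = 4 each), a higher Kdm6b-KO mean, while the log2 change was negative, at -0.52 ± 0.71 (SE; limma adjusted p = 0.741). Without Kdm6b-KO replicate 3 the Kdm6b-KO mean was 2.16 ± 1.98 CPM (SD, n = 3) and the log2 change -1.30 ± 0.48 (SE; limma adjusted p = 0.187). Without control replicate 2 the control mean was 4.26 CPM, and without Kdm6b-KO replicate 4 the log2 change turned positive, at 0.08.

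Gzmk, the gene of granzyme K, lies 70.6 kb from Gzma on chromosome 13 and encodes a protease of similar specificity. Its level was 0.493, 1.71, 3.51 and 0.494 CPM in Kdm6b-KO replicates 1 to 4, against 0.383, 0.572, 0.209 and 0.951 CPM in control replicates 1 to 4. These values stand for 4 to 64 reads, so Gzmk was detected in all 8 libraries but did not pass the filter and was not tested. Kdm6b-KO replicates 3 and 2 were the highest. The mean was 1.55 ± 1.43 CPM in Kdm6b-KO libraries and 0.529 ± 0.318 CPM in controls (SD, n = 4 each), and 0.900 CPM in Kdm6b-KO libraries without replicate 3. Control replicate 4, which stood out for Gzma, held 21 reads of Gzmk.

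Prf1 and Nkg7 act with the granzymes, one as the pore and the other as a membrane protein of the granule that promotes its release. Prf1 was at 94.0, 97.0, 119 and 77.3 CPM in Kdm6b-KO replicates 1 to 4, against 69.6, 88.7, 71.1 and 67.9 CPM in control replicates 1 to 4. It was the most even of the members, with Kdm6b-KO replicate 4 below control replicate 2 and the other Kdm6b-KO libraries above all controls. The mean was 96.9 ± 17.2 CPM in Kdm6b-KO libraries and 74.3 ± 9.68 CPM in controls (SD, n = 4 each). The log2 change was 0.37 ± 0.15 (SE), with an unadjusted p of 0.0286 and a limma adjusted p of 0.201. With library weights, which let the more variable libraries count less, Prf1 was called (log2 change 0.43, adjusted p = 0.0444), and over all settings tried its adjusted p ran from 0.0444 to 0.374. Without Kdm6b-KO replicate 3 the log2 change was 0.26 ± 0.15 (SE; limma adjusted p = 0.374). The weighted estimate lay further from this value than the unweighted one, so the weighted call did not come from setting that library aside.

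Nkg7 was at 26.3, 41.9, 129 and 51.5 CPM in Kdm6b-KO replicates 1 to 4, against 25.6, 36.7, 10.3 and 30.3 CPM in control replicates 1 to 4. Kdm6b-KO replicate 3 was 4.27 times the median of the other 7 libraries and control replicate 3 was the lowest. The mean was 62.3 ± 45.8 CPM in Kdm6b-KO libraries and 25.7 ± 11.3 CPM in controls (SD, n = 4 each). The log2 change was 1.13 ± 0.46 (SE), with an unadjusted p of 0.0305 and a limma adjusted p of 0.206. Leaving out Kdm6b-KO replicate 3 took the Kdm6b-KO mean to 39.9 ± 12.7 CPM (SD, n = 3) and the log2 change to 0.70 ± 0.38 (SE; limma adjusted p = 0.365).

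**Figure D2:**
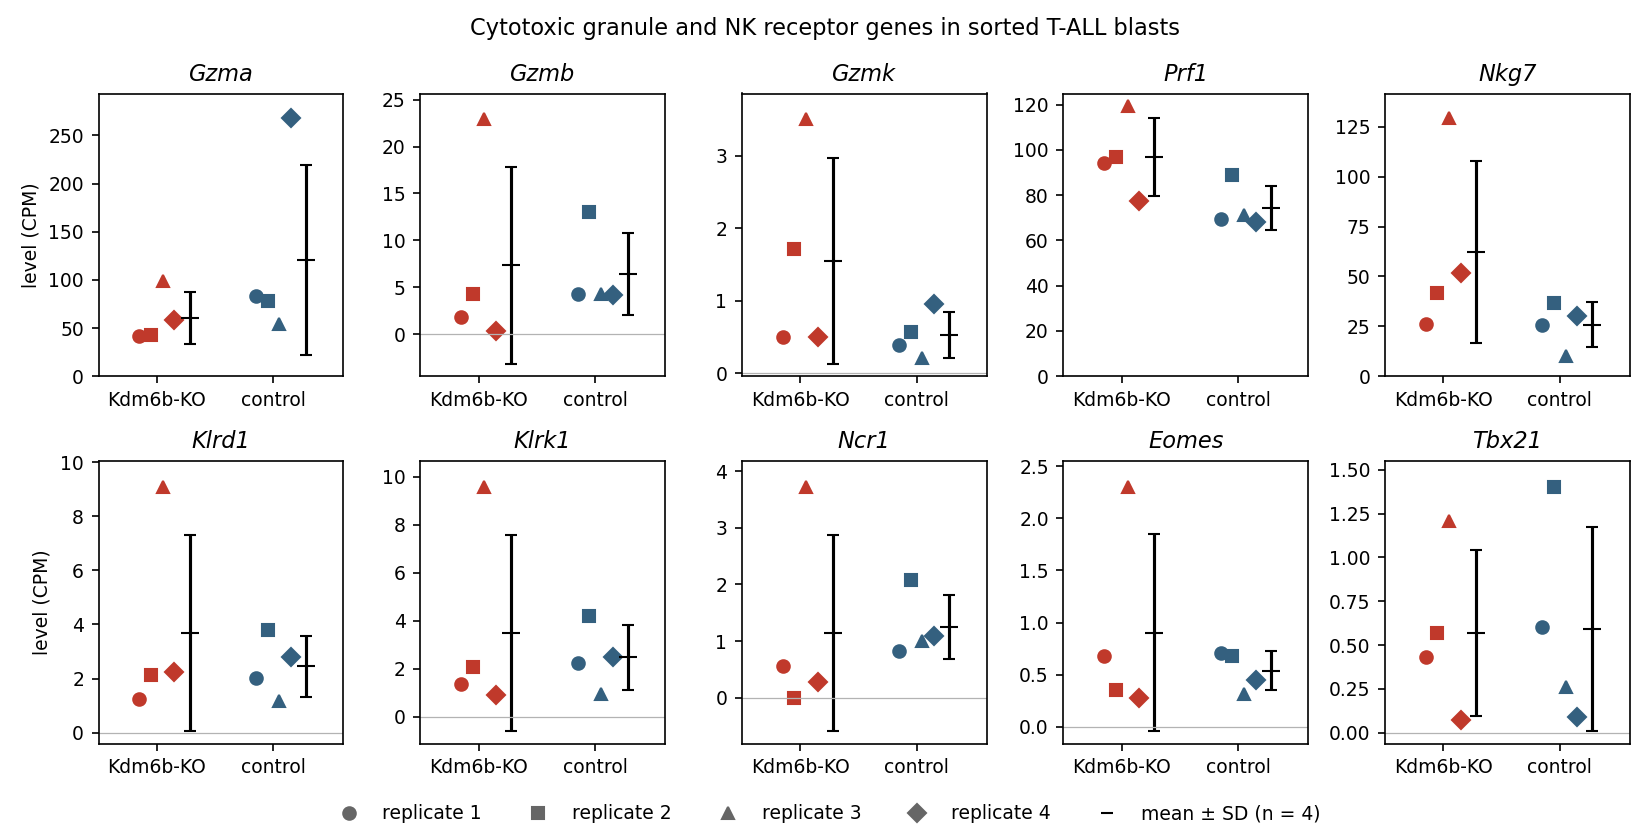
CPM of the 10 genes in each library, with 1 marker shape per replicate number (Kdm6b-KO red, control blue); the black bar is the mean ± SD of the 4 libraries of a group and each y axis has its own range. Kdm6b-KO replicate 3 (red triangle) is the highest of the 8 libraries in 8 of the 10 panels, all but Gzma and Tbx21.

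The lectin-like receptor genes Klrd1 and Klrk1 lie 11.5 kb apart on chromosome 6 (mm10), on opposite strands, within the gene cluster of NK receptors. Klrd1 (plus strand, 129591782 to 129598775) encodes CD94, which pairs with a product of Klrc1 or Klrc2. It was at 1.23, 2.14, 9.10 and 2.26 CPM in Kdm6b-KO replicates 1 to 4, against 2.03, 3.80, 1.15 and 2.81 CPM in control replicates 1 to 4. Klrk1 (minus strand, 129610323 to 129623864) encodes NKG2D, an activating receptor for stress-induced ligands. It was at 1.36, 2.07, 9.59 and 0.917 CPM in Kdm6b-KO replicates 1 to 4, against 2.24, 4.21, 0.942 and 2.49 CPM in control replicates 1 to 4. In both genes Kdm6b-KO replicate 3 was the highest and control replicate 2 the second highest, and the other 6 libraries were interleaved.

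Klrd1 averaged 3.68 ± 3.64 CPM in Kdm6b-KO libraries and 2.45 ± 1.13 CPM in controls, and Klrk1 averaged 3.48 ± 4.10 CPM in Kdm6b-KO libraries and 2.47 ± 1.34 CPM in controls (SD, n = 4 each). Without Kdm6b-KO replicate 3 the Kdm6b-KO mean was 1.88 ± 0.56 CPM for Klrd1 and 1.45 ± 0.581 CPM for Klrk1 (SD, n = 3 each), both below the control mean. The log2 change was 0.24 ± 0.43 (SE; limma adjusted p = 0.806) for Klrd1 and 0.09 ± 0.49 (SE; limma adjusted p = 0.945) for Klrk1. The direction of both turned when a single library was left out. Without Kdm6b-KO replicate 3 the log2 change was -0.22 ± 0.30 (SE; limma adjusted p = 0.756) for Klrd1 and -0.45 ± 0.34 (SE; limma adjusted p = 0.523) for Klrk1. Klrk1 also turned negative without control replicate 3, at -0.16.

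Ncr1 encodes NKp46, a receptor that marks NK cells and related innate lymphocytes. Its level was 0.555, 0, 3.73 and 0.282 CPM in Kdm6b-KO replicates 1 to 4, against 0.821, 2.08, 0.994 and 1.09 CPM in control replicates 1 to 4. Kdm6b-KO replicate 2 held 0 reads, which allows up to 0.214 CPM, and Kdm6b-KO replicate 4 held 4 reads, while Kdm6b-KO replicate 3 held 68. The mean was 1.14 ± 1.74 CPM in Kdm6b-KO libraries and 1.25 ± 0.567 CPM in controls (SD, n = 4 each). Without Kdm6b-KO replicate 3 the Kdm6b-KO mean was 0.279 ± 0.278 CPM (SD, n = 3), below the control mean. Ncr1 did not pass the filter and was not tested.

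The T-box factor genes were near the limit of detection. Eomes was at 0.678, 0.357, 2.30 and 0.282 CPM in Kdm6b-KO replicates 1 to 4, against 0.712, 0.676, 0.314 and 0.453 CPM in control replicates 1 to 4. Kdm6b-KO replicate 3 held 42 reads of Eomes and the other 7 libraries 4 to 13. Its mean was 0.905 ± 0.947 CPM in Kdm6b-KO libraries and 0.539 ± 0.189 CPM in controls (SD, n = 4 each), and 0.439 CPM in Kdm6b-KO libraries without replicate 3. Tbx21 was at 0.432, 0.571, 1.21 and 0.0705 CPM in Kdm6b-KO replicates 1 to 4, against 0.602, 1.40, 0.262 and 0.0906 CPM in control replicates 1 to 4. It was under the floor of 3 reads in Kdm6b-KO replicate 4 and in control replicate 4, and highest in control replicate 2 with 27 reads. Neither gene was tested. Exons of Eomes overlap the gene Gm33460 on the opposite strand, and the strand setting of the counting is not given in the sources used here, so its few reads may belong to either.

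Levels were compared between genes as CPM per kb of merged exons (GENCODE vM21), by the median of the 8 libraries. Gzma was first at 67.3 CPM per kb, followed by Nkg7 at 36.6 and Prf1 at 32.1, and the ranges of these neighbours overlapped. A gap followed, since the lowest Prf1 value (26.3 CPM per kb) lay above the highest Gzmb value (16.0 CPM per kb). Gzmb at 2.98 and Klrd1 at 1.72 CPM per kb came next. Ncr1 (0.590), Gzmk (0.384), Klrk1 (0.300), Tbx21 (0.201) and Eomes (0.136 CPM per kb) ended the order, each overlapping its neighbour in range. Every value of Gzma, Nkg7 and Prf1 except the lowest of Nkg7 (11.2 CPM per kb) lay above all values of the other 7 genes.

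Likeness between members is given as a description over 8 libraries, in which Kdm6b-KO replicate 3 is the extreme for most members. On log2(CPM + 1), Klrd1 and Klrk1 had a Pearson r of 0.94 (n = 8 libraries), and 0.80 over the 7 libraries without Kdm6b-KO replicate 3. Gzmb was most like Klrk1 (r = 0.90, or 0.82 without that library), and Eomes was most like Klrk1 too (r = 0.88, or 0.60 without it). For Gzma the highest r with any other member was 0.46, with Ncr1. Prf1 was most like Gzmk (r = 0.77), with r = 0.47 without Kdm6b-KO replicate 3. The gene outside the list whose pattern was most like the mean of the 6 tested members, among 10604 genes with a mean of at least 5 CPM, was Acadsb, an acyl-CoA dehydrogenase gene (r = 0.98, or 0.95 without Kdm6b-KO replicate 3 and 0.91 without Kdm6b-KO replicate 3 and control replicate 2). The next were Plek (pleckstrin, r = 0.95), the lysophospholipid acyltransferase gene Lpcat4 (r = 0.93), the GTPase gene Gimap3 (r = 0.92) and the xanthine dehydrogenase gene Xdh (r = 0.91), which without both libraries gave r of 0.75, 0.90, 0.68 and 0.37 in the same order. These genes were picked as the highest of 10604, so a high r was to be met among them. The values with libraries left out reuse libraries that picked them, and no chance level was computed.

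**Figure D3:**
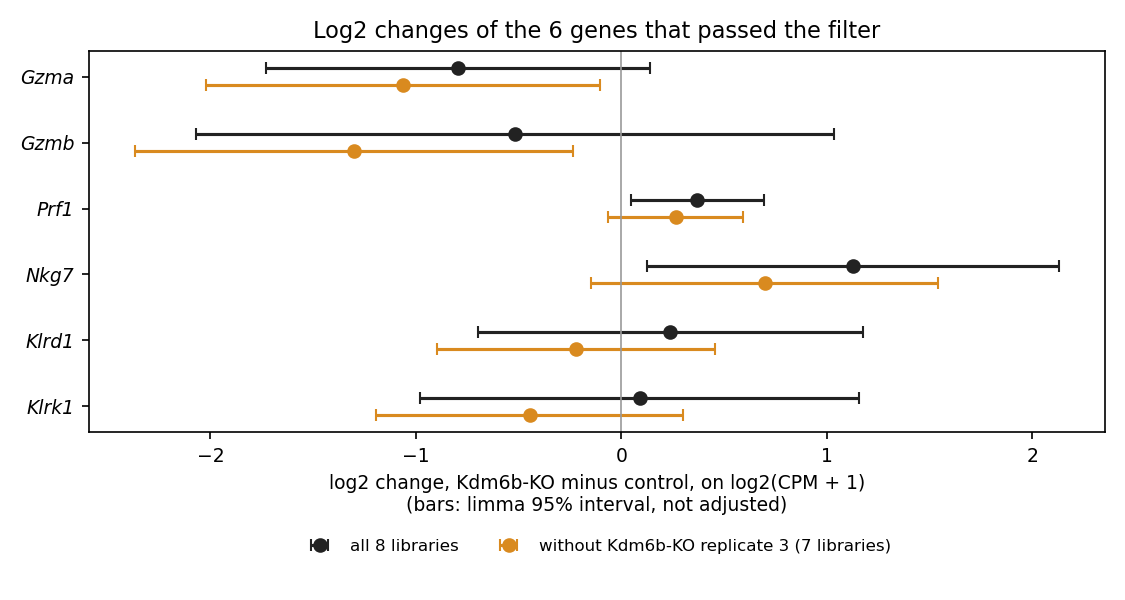
Log2 change (x axis, Kdm6b-KO minus control on log2(CPM + 1)) of the 6 genes that passed the filter, over all 8 libraries (black) and without Kdm6b-KO replicate 3 (orange), with unadjusted limma 95% intervals. Klrd1 and Klrk1 move to the other side of 0 without that library, Gzma and Gzmb stay negative and Prf1 and Nkg7 stay positive.

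Markers of NK cells were set beside the members. In bulk samples fewer cells of a type and less RNA per cell cannot be told apart. The 7 NK cell markers in the table outside the members summed to 15.4, 35.0, 45.4 and 45.3 CPM in Kdm6b-KO replicates 1 to 4, against 23.2, 42.5, 14.4 and 30.3 CPM in control replicates 1 to 4. Kdm6b-KO replicate 3 was the highest of the 8 libraries, with Kdm6b-KO replicate 4 and control replicate 2 close to it, while 8 of the members peaked in replicate 3 and Gzmb, Klrk1, Eomes and Tbx21 were lowest of all in replicate 4. The most abundant of these markers were Klrb1c, the gene of the receptor NK1.1 and also highest in Kdm6b-KO replicate 3, at 9.50, 26.4, 30.2 and 19.4 CPM in Kdm6b-KO replicates 1 to 4 and 12.6, 17.3, 4.40 and 15.5 CPM in control replicates 1 to 4, and Tyrobp, an adaptor gene of NK and myeloid cells, at 1.91, 4.35, 6.36 and 13.5 CPM in Kdm6b-KO replicates and 4.87, 10.8, 2.98 and 6.25 CPM in controls. No marker was at 0 in all libraries, and between 0 and 3 of the 7 were under the floor in a library. Exons of Klrb1c overlap Gm44511 on the same strand.

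Among the other lists, the CD8 genes Cd8a and Cd8b1 summed to 2761 to 3863 CPM in Kdm6b-KO libraries and 2153 to 4414 CPM in controls. The 8 neutrophil and monocyte markers, led by Lyz2 and Ngp, summed to 126, 119.8, 239.8 and 345 CPM in Kdm6b-KO replicates 1 to 4, against 128, 309, 128 and 156 CPM in control replicates 1 to 4. The 6 erythroid markers, led by Hbb-bs and Hba-a2, reached 945 CPM in Kdm6b-KO replicate 4 and 1255 CPM in control replicate 2, and lay between 60.4 and 275 CPM in the other libraries. The 4 platelet markers, led by Itga2b and Pf4, summed to 2.16 to 6.63 CPM in Kdm6b-KO libraries and 1.31 to 3.28 CPM in controls. The 6 B cell markers summed to 845 to 879 CPM in Kdm6b-KO libraries and 657 to 816 CPM in controls, nearly all of it Ighm, with Cd79b next. Kdm6b-KO replicate 3, where most members peaked, was not the highest library for any of these 5 other lists. For the NK cell markers outside the members it was nearly level with Kdm6b-KO replicate 4 (45.4 and 45.3 CPM). The make-up of these sums differed. Tyrobp, also a gene of myeloid cells, held 6.36 CPM in Kdm6b-KO replicate 3 and 13.5 CPM in replicate 4, while Klrb1c held 30.2 and 19.4 CPM. The part of other cells in the members' levels was not tested.

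Of 92 other genes of granules, NK receptors and their regulation, 74 were in the table and 57 were tested. Limma called 1 as higher and 2 as lower in Kdm6b-KO, so 3 of 57 against 3.53% of all genes (1.21% higher and 2.32% lower), with a median log2 change of 0.07 against -0.03 over all genes. Kdm6b-KO replicate 3 was the highest library for 20 of the 57 (35.1%), against 7.97% of all tested genes. These included 8 of 11 other effector and chemokine genes, 3 of 5 granule protein genes, 3 of 5 NK lectin-like receptor genes and 3 of 4 serpin genes. It was the highest for 0 of 7 granule release genes, 0 of 6 adaptor and ligand genes and 3 of 19 upstream factor and cytokine receptor genes.

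Among the 7 granule release genes 1 rose, against 1.21% of all genes, and the median log2 change was -0.03. The one that rose was Sytl2, whose product tethers granules to the membrane through Rab27. It was at 4.13, 3.71, 2.91 and 3.45 CPM in Kdm6b-KO replicates 1 to 4, against 0.602, 1.72, 0.785 and 0.544 CPM in control replicates 1 to 4, and the groups did not overlap. The log2 change was 1.28 ± 0.24 (SE; limma adjusted p = 0.0170), and the authors' deposited table lists it with a fold of 3.89 toward the knockout. Sytl2 passed the filter through its Kdm6b-KO values. It was no longer called when control replicate 1 or 3, or Kdm6b-KO replicate 1 or 2, was left out (limma adjusted p up to 0.0674). The most abundant genes of this list were Stxbp2, a partner of granule syntaxins (195 ± 15.9 CPM in Kdm6b-KO libraries and 199.7 ± 19.1 CPM in controls), and the lysosomal trafficking gene Lyst (179.6 ± 49.4 CPM in Kdm6b-KO libraries and 211 ± 55.8 CPM in controls), neither called (SD, n = 4 each).

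Of 19 upstream transcription factor and cytokine receptor genes tested 2 fell and 0 rose, against 2.32% and 1.21% of all genes. The median log2 change was -0.02. Both that fell encode cytokine receptor chains. Il12rb2, the signalling chain of the receptor for interleukin 12, was at 21.7, 18.7, 36.8 and 16.7 CPM in Kdm6b-KO replicates 1 to 4, against 85.5, 46.2, 53.8 and 101 CPM in control replicates 1 to 4, with no overlap. Its log2 change was -1.56 ± 0.28 (SE; limma adjusted p = 0.0166), and the authors' deposited table gives a fold of 3.05 toward control. Leaving out control replicate 1, or Kdm6b-KO replicate 1, 2 or 4, ended the call (limma adjusted p up to 0.0695). Exons of Serbp1 overlap it on the opposite strand, so its reads are uncertain.

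Ifngr1, the ligand-binding chain of the receptor for interferon gamma, was at 351, 232, 333 and 259 CPM in Kdm6b-KO replicates 1 to 4, against 760.5, 578, 679 and 349 CPM in control replicates 1 to 4. Kdm6b-KO replicate 1 lay just above control replicate 4, so the groups overlapped. The log2 change was -0.97 ± 0.23 (SE; limma adjusted p = 0.0421), and the authors' deposited table gives a fold of 2.01 toward control. Leaving out any single library other than control replicate 4 ended the call, as did testing with no filter (limma adjusted p up to 0.138). Il2rg, the chain shared by several interleukin receptors and the most abundant gene of the list, was at 1524 ± 102 CPM in Kdm6b-KO libraries and 1159.6 ± 219 CPM in controls (SD, n = 4 each; limma adjusted p = 0.188). Exons of Il2rg overlap Gm20489 on the same strand. None of the 10 members is in the authors' deposited table of 218 genes. That table is labelled with a fold cutoff, so a member with a smaller fold would be left out whatever its p-value. A small fold does not account for all 10 members. The group means of Nkg7 and Gzmk differed by a larger ratio than those of the listed Ifngr1. Nkg7 averaged 62.3 CPM in Kdm6b-KO libraries and 25.7 CPM in controls, Gzmk 1.55 and 0.529 CPM, and Ifngr1 294 and 592 CPM. Any other criterion of that table is not given.

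The other lists held no called gene. The median log2 change was 0.17 over 5 granule protein genes, 0.10 over 4 serpin genes, 0.44 over 5 other NK lectin-like receptor genes, -0.05 over 6 adaptor and ligand genes and 0.42 over 11 other effector genes. Without Kdm6b-KO replicate 3 the medians were 0.14, -0.03, 0.16, -0.09 and 0.08 in the same order. The most abundant genes of these lists were not called. Srgn, the proteoglycan core of the granule, was at 246 ± 19.2 CPM in Kdm6b-KO libraries and 218 ± 15.4 CPM in controls, and Ctsc, the protease that activates granzymes, was at 78.1 ± 7.23 CPM in Kdm6b-KO libraries and 82.0 ± 7.62 CPM in controls. Serpinb6b was at 68.4 ± 10.5 CPM in Kdm6b-KO libraries and 62.7 ± 12.2 CPM in controls, and Serpinb6a at 19.4 ± 3.62 CPM in Kdm6b-KO libraries and 19.9 ± 4.47 CPM in controls (SD, n = 4 each). Exons of Serpinb6a overlap 1110046J04Rik, Nqo2 and Ripk1 on the opposite strand.

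Cd69, an early activation receptor gene of the same chromosome 6 cluster, was at 81.5 ± 17.1 CPM in Kdm6b-KO libraries and 58.0 ± 16.5 CPM in controls (limma adjusted p = 0.239). Cd247, a signalling chain of the T cell receptor, was at 844 ± 43.8 CPM in Kdm6b-KO libraries and 748 ± 201 CPM in controls, and H2-T23, which encodes a ligand of the CD94 receptors, at 515 ± 31.5 CPM in Kdm6b-KO libraries and 526 ± 44.8 CPM in controls (SD, n = 4 each). Exons of Cd247 overlap Pou2f1 on the opposite strand and Gm16565 on the same strand. The chemokine gene Ccl5 was at 16.1 ± 9.52 CPM in Kdm6b-KO libraries and 10.03 ± 3.20 CPM in controls, and Cd160, a receptor gene of NK and CD8 T cells, at 53.8 ± 17.2 CPM in Kdm6b-KO libraries and 29.2 ± 9.43 CPM in controls. Cd160 was not called (log2 change 0.87 ± 0.27, limma adjusted p = 0.101) but was with library weights (0.0264) and without control replicate 4 (0.0414), and its exons overlap Pdzk1 on the opposite strand. Without Kdm6b-KO replicate 3 the log2 change of Cd160 was 0.70 (limma adjusted p = 0.210).

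The partners of the members, named after their values were seen, did not all follow them. Klrc1, the gene of the inhibitory CD94 partner NKG2A, was at 1.17, 1.85, 14.2 and 1.18 CPM in Kdm6b-KO replicates 1 to 4, against 1.64, 7.39, 2.23 and 3.32 CPM in control replicates 1 to 4, high in the same pair of libraries as Klrd1. Klrc2 was at 0.863, 0.862, 3.47 and 1.4997 CPM in Kdm6b-KO replicates 1 to 4, against 0.496, 1.73, 0.282 and 1.17 CPM in control replicates 1 to 4, in the same order of the highest libraries. Hcst, the adaptor gene of NKG2D, showed no such peak, at 11.04, 10.3, 12.1 and 15.4 CPM in Kdm6b-KO replicates 1 to 4, against 12.05, 8.74, 9.73 and 11.9 CPM in control replicates 1 to 4. Runx3, a factor gene of CD8 and NK cells, was at 20.5 ± 2.55 CPM in Kdm6b-KO libraries and 26.4 ± 4.54 CPM in controls (SD, n = 4 each; limma adjusted p = 0.284).

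Also chosen after their values were seen, 5 genes were high in Kdm6b-KO replicate 3. Xcl1, the gene of the chemokine lymphotactin, was at 5.48, 4.92, 27.6 and 20.8 CPM in Kdm6b-KO replicates 1 to 4, against 3.44, 3.02, 0.628 and 3.62 CPM in control replicates 1 to 4. Cst7, which encodes an inhibitor of granule cathepsins, was at 7.09, 10.1, 36.8 and 20.4 CPM in Kdm6b-KO replicates 1 to 4, against 5.15, 4.84, 2.15 and 7.93 CPM in control replicates 1 to 4. Xcl1 values did not overlap between the groups, and neither gene was called (limma adjusted p = 0.0781 for Xcl1 and 0.0890 for Cst7) except with library weights (0.0362 for Xcl1 and 0.0269 for Cst7). Without Kdm6b-KO replicate 3 neither was called (limma adjusted p = 0.150 for Xcl1 and 0.162 for Cst7). The cathepsin gene Ctsw reached 24.5 CPM in Kdm6b-KO replicate 3 and lay between 0.733 and 7.76 CPM in the other libraries. Il2rb, a chain of the receptors for interleukins 2 and 15, was at 59.9 CPM there and between 6.44 and 28.6 CPM in the others, and the transcription factor gene Bhlhe40 at 44.2 CPM there and between 1.78 and 8.25 CPM in the others. Exons of Xcl1, Ctsw and Bhlhe40 overlap Gm20743, Fibp and 0610040F04Rik on the opposite strand.

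**Figure D4:**
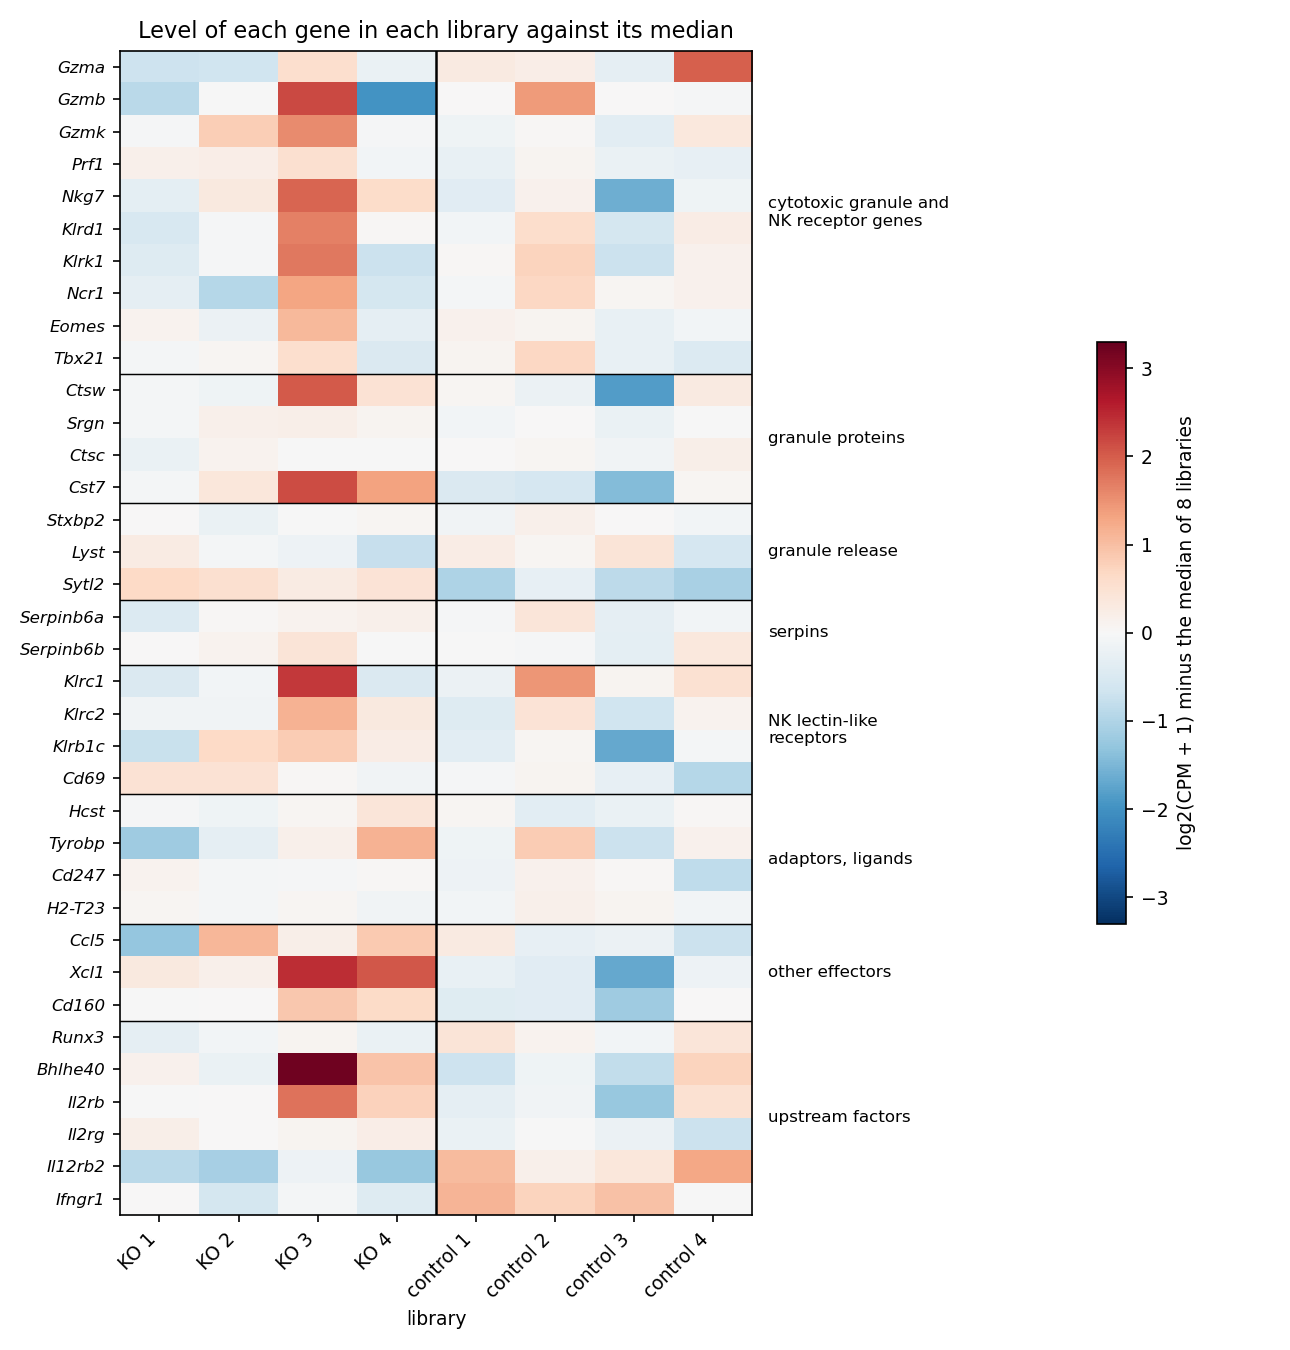
Level of the 10 members (top block) and of the named genes of 7 other lists in each library, as log2(CPM + 1) minus the median of the gene over the 8 libraries (colour), with Kdm6b-KO replicates left of the line and controls right of it. Kdm6b-KO replicate 3 is the red column in the member block, at 22.9 CPM for Gzmb against a median of 4.28 CPM in the other 7 libraries, while the granule release genes Stxbp2 and Lyst show no such column.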

How the data were processed

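Per the labels' protocols, the NucleoSpin RNA XS kit gave the RNA of sorted blasts and the SMARTer Ultra Low RNA kit the libraries. The submitters' processing notes name STAR (2.7.3a), Partek (10.0.22.0524) and the build mm10; which counter, strand setting and annotation were used is not given in the sources used here. CPM was deposited by the authors for 20888 genes in 8 libraries, with 0.0001 added to each value, which was subtracted here. The authors' deposited list of 218 genes gives a signed linear fold score of control over knockout, and its statistical model is not given.

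Depth was estimated from the CPM step of 1 read. Of the values of a library below 200 reads, 70.4% to 73.1% were whole reads within 0.02, so no count model was run; of the members' own values between 0 and 200 reads, 54 of 54 were whole, and they are also given as reads. The 13840 genes that reached 1 CPM in 4 or more of the 8 libraries were tested with limma (3.58.1, R 4.3.3) on log2(CPM + 1) with a mean-variance trend, as Kdm6b-KO minus control, two-sided, adjusted by Benjamini-Hochberg over all of them and called at an adjusted p below 0.05. The log2(CPM + 1) scale understates changes of low genes. The fit was tested on simulated data. Errors are SD over libraries or limma SE.

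The members and lists were chosen with earlier results of these data known. Named genes are the members, the called and the 2 most abundant genes of each of 7 lists, the 2 most abundant markers of each of 7 cell type lists, and the 5 genes most like the members' mean; any other gene is marked in the text as picked with its values known. Gene positions and overlaps come from GENCODE vM21 (mm10), which may differ from the authors' annotation, and promoters from RefSeq. The alternatives were other pseudocounts, no filter, 2 other scalings, library weights, the replicate number as a block, and each library left out.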

Additional observations from a re-analysis of the deposited data

Results flagged for a closer look

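In 13 of 114 groups of 4 values looked at, the highest library stood apart from the other 3 by more than Dixon's 95% critical value allows. Among the members this held for 6 of 20 groups. In Kdm6b-KO replicate 3 it held for Klrd1 (9.10 CPM, next 2.26), Klrk1 (9.59 CPM, next 2.07) and Ncr1 (3.73 CPM, next 0.555), and for 3 genes chosen after their values were seen, Klrc1 (14.2 CPM, next 1.85), Ctsw (24.5 CPM, next 7.76) and Bhlhe40 (44.2 CPM, next 8.25). In control replicate 2 it held for Gzmb (13.003 CPM, next 4.33), Prf1 (88.7 CPM, next 71.1) and the summed neutrophil and monocyte markers (309 CPM, next 156). In control replicate 4 it held for Gzma (268 CPM, next 83.2). In Kdm6b-KO replicate 4 it held for Hba-a2 (316 CPM, next 78.8), Hbb-bs (288 CPM, next 60.3) and the summed erythroid markers (945 CPM, next 220). For normally distributed values chance flags about 1 in 20 groups, counting both ends. The counts here cannot be set against that rate. CPM was not put on a log scale, some genes were chosen after their values were seen, and the marker sums share genes with other groups.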

How the results depend on the processing

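Limma called 0 of the 6 tested members in all 15 alternatives other than library weights, which called 1 (Prf1); without the filter 0 of all 10 were called. Each library left out gave 0. Of the other listed genes 3 were called, 9 with library weights, and 0 to 4 with a library left out; the libraries without which 0 or 1 were called were control replicates 1 and 3 and Kdm6b-KO replicates 1 and 2. Over all genes 488 were called, 1313 with library weights and 81 to 670 with a library left out. Of the calls over all genes 65.8% were lower in Kdm6b-KO, against 55.8% under quantile normalization (188 higher and 237 lower). Kdm6b kept its direction in every alternative, with a log2 change of 0.01 to 0.34 when a library was left out.

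Some log2 changes changed sign. With a library left out these were Gzmb (range -1.30 to 0.0819), Klrd1 (-0.22 to 0.51), Klrk1 (-0.45 to 0.38), Stxbp2 (-0.0661 to 0.0293), Serpinb6a (-0.12 to 0.11), Klrc1 (-0.82 to 0.19), Tyrobp (-0.46 to 0.31) and H2-T23 (-0.0617 to 0.0192). Klrc1 turned positive with a pseudocount of 5 (0.0046) and with library weights (0.21), Serpinb6a under quantile normalization (0.071) and H2-T23 under median-ratio scaling (0.0023). The cause was not tested. Of 495 comparisons of a log2 change (33 genes) with an alternative, 454 kept direction and side of the threshold.

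The replicate numbers did not pair the libraries: same-numbered libraries had correlations of their deviations from the group means of 0.15, 0.07, -0.10 and 0.18. With the replicate block limma called 509 genes, 0 members and 3 of the other listed genes. At these depths a level under 0.136 to 0.214 CPM was not detectable.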
